A study of Mus musculus with 16 samples.

Results

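Glycolysis and the pentose phosphate pathway were followed in mouse embryonic fibroblasts of 2 genotypes, with and without proteasome inhibition, through 38 genes. They encode glucose and lactate carriers, the glycolytic enzymes and their regulators, the enzymes that decide the fate of pyruvate, the pentose phosphate enzymes, and a few enzymes of gluconeogenesis and glycogen metabolism. The genes were chosen by symbol, and each was read from its probe set that names this gene alone and had the highest mean signal over all arrays. Such a probe set was found for 35 of the 38 genes, out of 18193 genes with one in all. 33 of them were tested, among 11451 genes, after a filter on low signals, which kept a gene if 4 or more of the 16 arrays had it above their median. The tested genes included 13 of the 15 glycolytic enzymes listed and 6 of the 7 pentose phosphate enzymes.

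The study held 4 groups of 4 plates: CHOP-/- fibroblasts exposed for 8 hours to 1 µM MG132, which blocks the proteasome, CHOP-/- fibroblasts without it, CHOP+/+ (wild-type) fibroblasts treated in the same way, and CHOP+/+ fibroblasts without it. The untreated cells were harvested at the same time, and the labels give them as receiving no treatment in one field and DMSO in another. All cells grew in medium with glucose at 4.5 g/L and 10% fetal bovine serum. The title of the series names the aim of finding genes that depend on CHOP, a transcription factor of the stress response, under proteasome inhibition. Nothing in the labels says whether the plates of a genotype came from separate embryos, and p-values here reflect plate-to-plate spread alone.

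Glycolysis splits glucose into pyruvate and yields ATP and NADH without oxygen, with phosphofructokinase as its main point of control. Lactate dehydrogenase regenerates the NAD that the pathway needs, and pyruvate dehydrogenase kinases switch off pyruvate dehydrogenase. The pentose phosphate pathway starts from the same glucose 6-phosphate. Its oxidative branch makes NADPH, which keeps glutathione and thioredoxin reduced, and its non-oxidative branch makes ribose 5-phosphate for nucleotides and returns sugars to glycolysis. Many glycolytic genes are known targets of hypoxia-inducible factor and MYC, and several pentose phosphate genes are known targets of NRF2, a regulator that the proteasome degrades.

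Values are MAS5 signals on a linear scale, scaled by the authors to the same trimmed mean on every array, and changes are differences of log2(signal + 16) with their standard error (SE). The median signal of an array was 90.1 to 113, and arrays of a group correlated at 0.985 to 0.992 across the tested genes. Ddit3, the gene of CHOP, averaged 396 ± 38.9 in treated and 368 ± 24.0 in untreated knockout cells (SD, n = 4 each), against 7724 ± 587 in treated and 1017 ± 101 in untreated wild-type cells. Whether the knockout deletes the stretch that this probe set reads was not checked. Of 10 fibroblast markers, 7 lay above the array median on every array, while Pdgfra averaged 118 in untreated knockout and 2351 in untreated wild-type cells, and Thy1 2727 and 227. The summed fibroblast markers ran from 97306 to 102499 in treated and 115762 to 129817 in untreated knockout cells, and from 112006 to 121612 and 112588 to 130655 in wild-type cells. Of the endothelial markers Pecam1, Cdh5 and Tek lay below the array median on all 16 arrays and Kdr above it on 6, and their sum was 217.9 to 402 in treated and 84.6 to 207 in untreated knockout cells, and 148 to 225 and 158 to 243 in wild-type cells. Kdr alone was tested, and it rose in knockout cells (1.86, limma adjusted p = 0.000678) and was higher in treated knockout than in treated wild-type cells (1.21, limma adjusted p = 0.0178). Of the leukocyte markers Ptprc and Itgam lay below the median on all 16 arrays, and the sum was 228 to 254 in treated and 185 to 289 in untreated knockout cells, and 277 to 389 and 217 to 352 in wild-type cells. Cd68, the tested one, rose in wild-type cells (0.63, limma adjusted p = 0.00665) and was lower in treated knockout than in treated wild-type cells (-0.78, limma adjusted p = 0.00146). The epithelial markers summed to 495 to 632 in treated and 252 to 432 in untreated knockout cells and to 402 to 599 and 265 to 434 in wild-type cells, and the fat cell markers to 120 to 181 and 128 to 193 in knockout and 362 to 455 and 312 to 347 in wild-type cells. Of the pluripotency markers Pou5f1, Nanog and Sox2, Sox2 alone passed the filter on low signals. Sox2 averaged 184 in untreated knockout and 1775 in untreated wild-type cells. The sum of these markers was 118 to 185 in treated and 202 to 258 in untreated knockout cells, and 1505 to 1712 and 1689 to 1901 in wild-type cells. The summed skeletal muscle markers, 596 to 642 in treated and 547 to 692 in untreated knockout cells, stood at 574 to 811 and 1043 to 1489.8 in wild-type cells. The part of these markers in the MG132 responses and in the differences between genotypes was not tested. The genotypes differed in sex-linked transcripts: Xist averaged 10336 in untreated knockout and 297 in untreated wild-type cells, and the Y-linked Eif2s3y 11.1 and 4714. Genotype, sex and cell isolate therefore cannot be told apart in any comparison of knockout with wild-type cells. Arrays were also centred on the median of the tested genes, a setting chosen after the data were seen. The median gene then moved by 0.14 in the knockout and 0.20 in the wild-type response. The median change thereby went from -0.07 to 0.07 in knockout and from -0.07 to 0.13 in wild-type cells. This setting turned the sign of the median change and did not remove it, and smaller changes depend on the scaling.

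The first question was how the pathway responded to MG132 in each genotype. Members moved in both directions: the glucose transporter gene Slc2a1, the phosphofructokinase genes Pfkl and Pfkm, the lactate dehydrogenase gene Ldha and the kinase gene Pdk1 fell in both genotypes, while the third phosphofructokinase gene, Pfkp, and the pentose phosphate genes Pgd and Taldo1 rose in both. In knockout cells 11 of the 33 tested members rose and 13 fell, with limma's adjusted p below 0.05, against 62.5% of all tested genes called (25.7% higher and 36.8% lower). In wild-type cells 7 rose and 13 fell, against 64.1% of all genes (27.2% higher and 36.9% lower). Calls were thus common among all genes, and the counts of members say little on their own. The median log2 change of the members was -0.12 in knockout and -0.07 in wild-type cells, beside -0.07 and -0.07 over all tested genes. 12 members fell in both genotypes (Slc2a1, Hk1, Pfkl, Pfkm, Tpi1, Pgam1, Eno3, Ldha, Pdk1, Pgls, Rpia and Pgm1), 4 rose in both (Pfkp, Slc16a1, Pgd and Taldo1), and 0 were called in opposite directions. The share of all tested genes called in both genotypes is not given here, so these counts only list the members. Centring on the tested genes gave 12 higher and 11 lower members in knockout and 13 and 11 in wild-type cells. With that scaling the calls over all genes were 55.8% and 61.6% higher, against 41.2% and 42.4% as scaled by the authors. Median centring over all single-gene probe sets gave 53% in knockout and 41.2% in wild-type cells, so it moved mainly the knockout response.

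**Figure D1:**
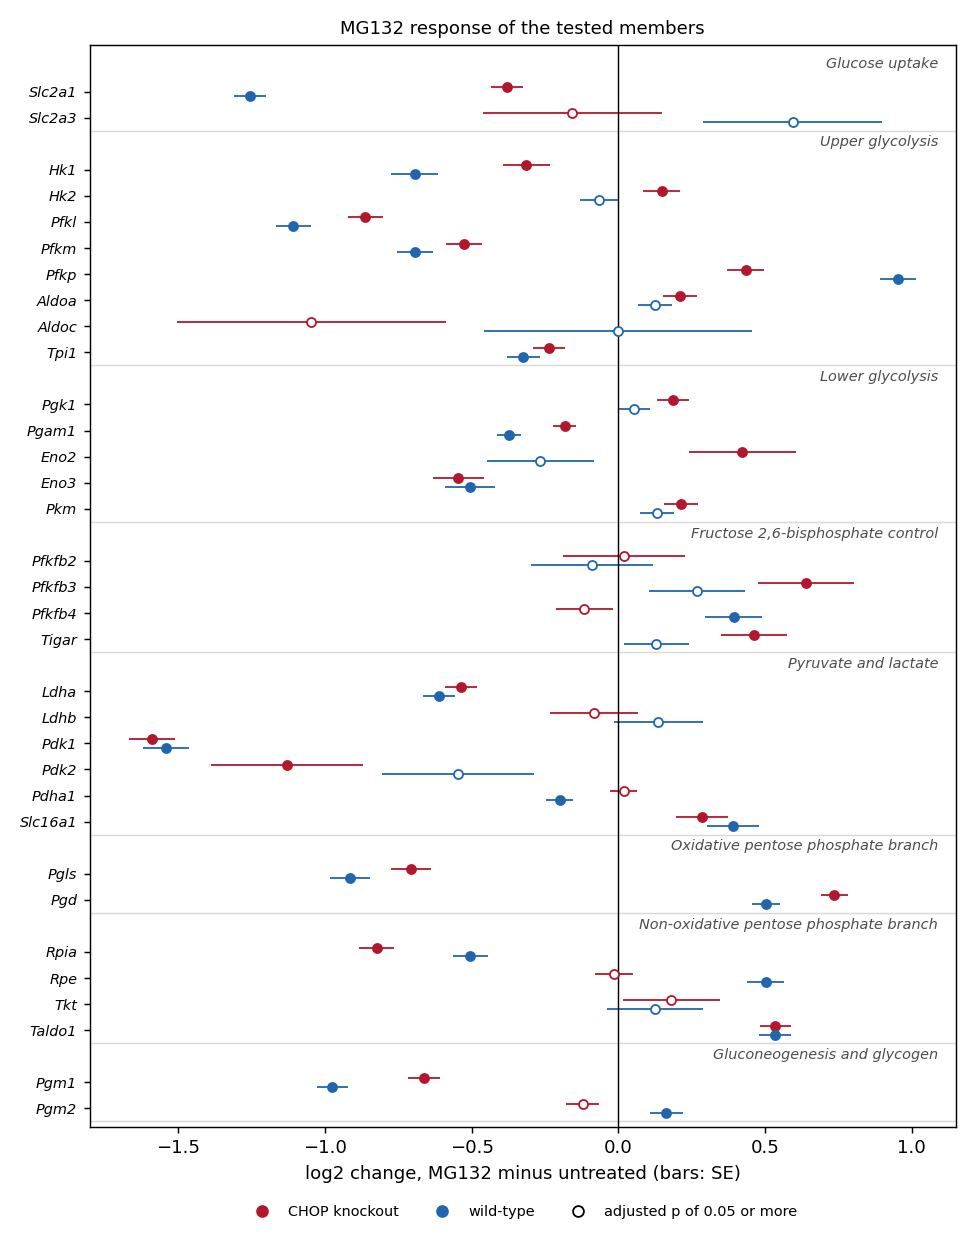
MG132 responses of the 33 tested members, grouped by role. The horizontal axis is the log2 change (treated minus untreated) with its SE; red points are knockout and blue points wild-type cells, and open points did not pass the test. Slc2a1, Pfkl, Pfkm, Ldha, Pdk1 and Pgls lie left of 0 in both genotypes, and Pfkp, Pgd and Taldo1 right of it.

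Glycolytic enzymes were then set beside pentose phosphate enzymes. Of the 13 tested glycolytic enzymes 6 rose and 6 fell in knockout cells, and 1 rose and 6 fell in wild-type cells. Of the 6 tested pentose phosphate enzymes 2 rose and 2 fell in knockout cells, and 3 rose and 2 fell in wild-type cells. Over all tested genes 25.7% were called higher and 36.8% lower in knockout cells, and 27.2% and 36.9% in wild-type cells. The glycolytic median was -0.18 in knockout and -0.27 in wild-type cells, and the pentose phosphate median 0.08 and 0.31. Tkt and Rpe were the middle pentose phosphate enzymes in both genotypes, so that median rests on their probe sets. Tkt gave 0.18 in knockout and 0.12 in wild-type cells, and its probe set 1451015_at gave 0.40 and 0.33. Under quantile normalisation the pentose phosphate median in knockout cells turned to -0.01 and that in wild-type cells became 0.17, and the glycolytic median in knockout cells became -0.29. Centring on the tested genes gave glycolytic medians of -0.04 and -0.06 and pentose phosphate medians of 0.23 and 0.52 in knockout and wild-type cells. Median centring gave -0.07 and 0.20 in knockout and -0.28 and 0.30 in wild-type cells. Both classes held members called in each direction, as did the tested genes at large, and such small counts say little on their own. The difference between the classes is described here and was not tested.

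**Figure D2:**
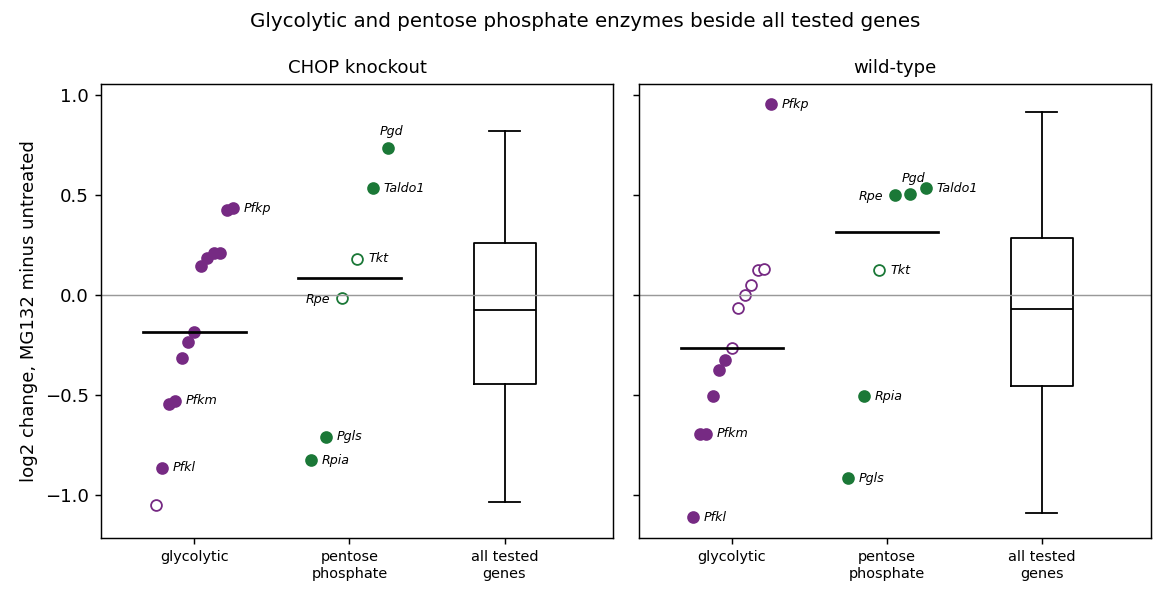
Log2 changes with MG132 of the glycolytic enzymes (purple) and pentose phosphate enzymes (green) in knockout (left) and wild-type cells (right). Open points did not pass the test, horizontal bars are class medians, and the box gives the median, quartiles, and 5th and 95th percentiles of all tested genes. Both classes spread across 0, with glycolytic medians of -0.18 and -0.27.

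What members share in sequence was described for their promoters. Windows from 250 bases before to 50 bases after a transcript start (RefSeq, GRCm38.p6) were available for 37 of the 38 genes, in 54 windows. The letters ACGTG, the core bound by hypoxia-inducible factor, were searched on both strands. They stood in 23 of the 54 windows (42.6%), against 19.6% of all 32851 windows of that length. By gene, 19 of 37 held them in at least 1 window (51.4%), against 21.8% of 27025 genes. The E-box CACGTG, which contains ACGTG, stood in 13.0% of member windows and 7.15% of all windows. The antioxidant response element TGACNNNGC stood in 13.0% and 12.4%, the heat shock element core GAANNTTC in 3.70% and 7.86%, and the C/EBP-ATF composite TGATGNAA in 0 of the 54 windows and 3.97% of all. Of the 12 members that fell in both genotypes 6 held ACGTG (Slc2a1, Hk1, Pfkm, Pgam1, Ldha and Pgm1), and of the 4 that rose in both 1 did (Slc16a1). The shares are descriptions without a test, and a match is not a bound site.

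The windows of 4 falling genes are shown 5′ to 3′ because they hold this core, with ACGTG or its reverse complement in capitals (CACGTG where both overlap).
Slc2a1, chr4:119108495-119108794 (+ strand): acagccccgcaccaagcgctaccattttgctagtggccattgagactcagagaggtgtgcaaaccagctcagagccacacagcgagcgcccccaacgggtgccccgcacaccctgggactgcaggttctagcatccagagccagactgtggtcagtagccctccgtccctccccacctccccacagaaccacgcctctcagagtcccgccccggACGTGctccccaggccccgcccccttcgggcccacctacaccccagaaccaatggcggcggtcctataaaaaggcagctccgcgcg
Pgam1, chr19:41911621-41911920 (+ strand): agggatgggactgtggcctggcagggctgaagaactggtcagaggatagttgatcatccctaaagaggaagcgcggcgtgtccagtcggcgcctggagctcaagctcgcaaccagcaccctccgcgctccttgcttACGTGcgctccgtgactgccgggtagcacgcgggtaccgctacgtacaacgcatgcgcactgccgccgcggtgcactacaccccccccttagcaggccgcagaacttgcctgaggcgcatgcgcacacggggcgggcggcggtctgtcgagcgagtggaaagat
Ldha, chr7:46845554-46845853 (+ strand): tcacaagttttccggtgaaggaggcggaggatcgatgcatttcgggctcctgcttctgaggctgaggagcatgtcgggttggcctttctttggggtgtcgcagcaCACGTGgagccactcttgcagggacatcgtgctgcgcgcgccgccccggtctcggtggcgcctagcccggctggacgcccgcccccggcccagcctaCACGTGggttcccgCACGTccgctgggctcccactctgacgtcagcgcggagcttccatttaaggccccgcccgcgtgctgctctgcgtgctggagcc
Pgm1, chr4:99929201-99929500 (+ strand): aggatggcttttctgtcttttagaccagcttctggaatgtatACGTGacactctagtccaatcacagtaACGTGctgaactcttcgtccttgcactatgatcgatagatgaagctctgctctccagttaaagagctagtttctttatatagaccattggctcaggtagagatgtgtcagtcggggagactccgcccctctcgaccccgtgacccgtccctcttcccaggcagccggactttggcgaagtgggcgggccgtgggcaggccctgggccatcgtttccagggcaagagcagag
Counted from the transcript start, the core began at position -36 in Slc2a1 and -114 in Pgam1. The Ldha window held 3 separate stretches and the Pgm1 window 2.

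Among the carriers of glucose, Slc2a1 had the largest called difference between the responses of any member. It encodes GLUT1, the main glucose transporter of fibroblasts, and fell in both genotypes. Its signals (probe set 1434773_a_at) were 5594, 5484, 6463 and 6366 in treated knockout cells, against 7354, 7871, 7891 and 7913 in untreated knockout cells. They were 2593, 2486, 2697 and 2700.3 in treated wild-type cells, against 6292, 6069, 6538 and 6203 in untreated wild-type cells. The 4 treated wild-type arrays lay far below the other 12, and treated and untreated arrays overlapped in neither genotype. The log2 change was -0.38 (SE 0.05, limma adjusted p = 4.36e-06) in knockout and -1.26 (SE 0.05, limma adjusted p = 7.77e-14) in wild-type cells, and the responses differed by 0.88 (SE 0.08, limma adjusted p = 6.63e-08), knockout minus wild-type. Slc2a1 was therefore higher in knockout than in wild-type cells by 1.18 with MG132 and by 0.30 without it. The other probe sets of the gene, 1426599_a_at and 1426600_at, gave -0.36 and -0.33 in knockout cells and -1.31 and -1.05 in wild-type cells. All 3 probe sets thus gave the more negative value in wild-type cells. Slc2a3, the gene of the high-affinity transporter GLUT3, had low signals, of 141, 106, 124 and 126 in treated knockout cells, against 124, 142, 154 and 141 in untreated knockout cells, and 52.4, 94.0, 93.9 and 133 in treated wild-type cells, against 33.1, 111, 76.1 and 25.0 in untreated wild-type cells. Its MG132 responses of -0.16 (limma adjusted p = 0.678) in knockout and 0.59 (limma adjusted p = 0.0957) in wild-type cells did not pass the test. Untreated knockout cells were higher than untreated wild-type cells by 1.16 (SE 0.30, limma adjusted p = 0.00291), from a probe set above the array median on 11 of 16 arrays. The mean of all probe sets gave 0.68, and the other probe sets, above the median on at most 3 arrays, gave 0.92, 0.58 and 0.05 without passing.

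In upper glycolysis the 3 phosphofructokinase genes moved in different directions. Phosphofructokinase commits fructose 6-phosphate to glycolysis, and its liver (Pfkl), muscle (Pfkm) and platelet (Pfkp) subunits form mixed tetramers. Pfkl gave 2052, 2469, 2338 and 2318 in treated knockout cells, against 4145, 4372, 3952 and 4244 in untreated knockout cells. The array values were 2298, 2692, 2449.5 and 2584 in treated wild-type cells, against 5519.6, 5602, 5215 and 5329 in untreated wild-type cells, so that its signal was lower on all treated arrays of both genotypes. The change was -0.86 (SE 0.06, limma adjusted p = 1.22e-10) in knockout and -1.11 (SE 0.06, limma adjusted p = 2.33e-12) in wild-type cells. A second probe set, 1450269_a_at, gave -0.79 and -1.04, whereas another, 1453541_at, gave 0.09 and -0.16, and the knockout value was -0.52 in the mean of all probe sets. This other one is the value used when probe sets with a suffix in their name are left out, and the calls of Pfkl are lost with it. The difference between the Pfkl responses, 0.25 (SE 0.08, limma adjusted p = 0.0337), was lost in 12 of 27 alternatives. These were centring on the tested genes (0.19), the mean of all probe sets (limma adjusted p = 0.221), unsuffixed probe sets (limma adjusted p = 0.67), a fit without the mean-variance trend (limma adjusted p = 0.0524) and 8 leave-one-out fits: without replicate 2 of untreated wild-type, 1 or 3 of untreated knockout, 1 or 3 of treated wild-type, or 2, 3 or 4 of treated knockout cells. Pfkm signals were 1659, 1627, 1562 and 1584 in treated knockout cells, against 2236, 2428, 2242 and 2396 in untreated knockout cells. The signals stood at 889, 849, 977 and 891 in treated wild-type cells, against 1361, 1550.4, 1551 and 1408 in untreated wild-type cells. The treated arrays were again the lower ones, at -0.53 (SE 0.06, limma adjusted p = 2.76e-07) in knockout and -0.69 (SE 0.06, limma adjusted p = 4.64e-09) in wild-type cells, and the responses were not shown to differ (0.17, SE 0.09, limma adjusted p = 0.171). Knockout cells had more Pfkm signal than wild-type cells at either treatment, by 0.83 (SE 0.06) with MG132 and 0.66 (SE 0.06) without it.

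Pfkp went the other way. Its signals were 2454, 2326, 2416 and 2311 in treated knockout cells, against 1735, 1715, 1759.7 and 1811 in untreated knockout cells. The signals were 2956, 2811, 3375 and 2813 in treated wild-type cells, against 1652, 1419.7, 1496 and 1566 in untreated wild-type cells. Every treated array lay above the untreated arrays of its genotype. Pfkp rose by 0.43 (SE 0.06, limma adjusted p = 3.8e-06) in knockout and by 0.95 (SE 0.06, limma adjusted p = 3.85e-11) in wild-type cells, and the responses differed by -0.52 (SE 0.09, limma adjusted p = 0.000165). Knockout cells were higher than wild-type cells without MG132 (0.19) and lower with it (-0.32), and the first of these calls was lost under median centring (log2 0.17) and in the mean of all probe sets (0.12). The other Pfkp probe sets, 1430634_a_at and 1437759_at, gave 0.37 and 0.22 in knockout cells and 0.81 and 0.53 in wild-type cells, all positive. Between genotypes, knockout minus wild-type, they gave -0.06 and -0.53 with MG132, neither of which passed, and 0.37 and -0.21 without it.

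Hexokinase traps glucose in the cell as glucose 6-phosphate, the branch point to both pathways. Hk1, the widely expressed form, fell in both genotypes, and Hk2, the inducible form, was higher in knockout than in wild-type cells. Hk1 gave 2223, 2723, 2674 and 2678 in treated knockout cells, against 2895, 3456, 3059 and 3396 in untreated knockout cells. The signals were 1777, 2135, 2012 and 2276 in treated wild-type cells, against 3463, 3290.2, 3045 and 3468 in untreated wild-type cells. The treated arrays were below the untreated ones in each genotype. Its change was -0.31 (SE 0.08, limma adjusted p = 0.00197) in knockout and -0.69 (SE 0.08, limma adjusted p = 2.11e-07) in wild-type cells, and the responses differed by 0.38 (SE 0.11, limma adjusted p = 0.0158). The knockout call was lost under median centring (-0.20), and the difference was lost in the mean over both probe sets (0.23). Hk2 signals were 2922, 2940.0, 2906 and 2753 in treated knockout cells, against 2629, 2645, 2597 and 2523 in untreated knockout cells, and 1989, 1919, 2104 and 1979 in treated wild-type cells, against 2458, 2043, 1963 and 1939 in untreated wild-type cells. Knockout arrays were above wild-type arrays at either treatment, by 0.52 (SE 0.06, limma adjusted p = 5.06e-07) with MG132 and 0.31 (SE 0.06, limma adjusted p = 0.000298) without it. The Hk2 response in knockout cells, 0.15 (SE 0.06, limma adjusted p = 0.0492), was close to the threshold. It was lost without the filter, with unsuffixed probe sets, without the trend and in every leave-one-out fit except those without replicate 1, 3 or 4 of untreated wild-type or 4 of treated knockout cells, and that of wild-type cells was -0.07 (SE 0.06, limma adjusted p = 0.378).

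Aldolase and triose phosphate isomerase split fructose bisphosphate and interconvert the products. Tpi1 fell by 0.24 in knockout and by 0.32 in wild-type cells on the log2 scale (limma adjusted p = 0.000952 and 3.47e-05), but both calls were lost when arrays were centred on the tested genes (-0.09 and -0.12). Aldoa rose in knockout cells, by 0.21 (SE 0.06, limma adjusted p = 0.00338), a call that was lost under quantile normalisation (0.08), and gave 0.13 (SE 0.06, limma adjusted p = 0.0637) in wild-type cells, which passed with centring on the tested genes (0.33), the mean of all probe sets (0.12) and the replicate block. Aldoc, the brain form, lay above the array median on 6 arrays only, and its -1.05 (limma adjusted p = 0.053) in knockout and -0.00 (limma adjusted p = 0.999) in wild-type cells did not pass.

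Lower glycolysis yields the ATP of the pathway. Pgam1 and Eno3 fell in both genotypes. Pgam1, which encodes phosphoglycerate mutase, gave 19374, 19484, 20231 and 19760.0 in treated knockout cells, against 21706, 22596, 22862 and 22364 in untreated knockout cells. The array values were 15396, 15513, 15286 and 15857 in treated wild-type cells, against 19029, 20466, 21252 and 19685 in untreated wild-type cells. Treated arrays were lower throughout, and the treated wild-type arrays were the lowest of all. The Pgam1 change was -0.18 (SE 0.04, limma adjusted p = 0.000415) in knockout and -0.37 (SE 0.04, limma adjusted p = 5.69e-08) in wild-type cells, with a difference of 0.19 (SE 0.06, limma adjusted p = 0.0142). Centring on the tested genes ended the knockout call (-0.04) and that of the difference (0.13) and moved the wild-type value to -0.17. Median centring ended the knockout call as well (-0.07). Eno3, the muscle form of enolase, gave 881, 1072, 997 and 879 in treated knockout cells, against 1370.0, 1464, 1417 and 1348 in untreated knockout cells. The signals stood at 725, 793, 853 and 1006 in treated wild-type cells, against 1169, 1202, 1218 and 1201 in untreated wild-type cells, again with the treated arrays lower. It changed by -0.55 (SE 0.09, limma adjusted p = 1.38e-05) and -0.51 (SE 0.09, limma adjusted p = 3.11e-05), and in wild-type cells by -0.30 after centring on the tested genes. Pgk1 and Pkm, the genes of both ATP-forming kinases of glycolysis, rose in knockout cells by 0.19 and 0.21 (limma adjusted p = 0.006 and 0.00338) and did not pass in wild-type cells at 0.05 and 0.13 (limma adjusted p = 0.421 and 0.0558). Both knockout calls were lost under quantile normalisation (0.02 and 0.05), which also turned the wild-type values to -0.11 and -0.01, the first of them called as a fall (limma adjusted p = 0.000576). Centring on the tested genes instead made both pass as rises in wild-type cells (0.26 and 0.33, limma adjusted p = 0.00359 and 0.000342), and Pkm passed with the replicate block (limma adjusted p = 0.0436), so the direction in wild-type cells depends on the scaling. The differences between genotypes, 0.13 and 0.08, did not pass (limma adjusted p = 0.219 and 0.504), although that of Pgk1 passed under quantile normalisation (0.13) and median centring (0.26). Eno2, the neuronal enolase gene, ranged from 138 to 274 over all arrays and gave 0.42 (limma adjusted p = 0.049) in knockout cells, a call lost with a pseudocount of 1 (0.46), without the filter, in a fit of only the groups compared and in every leave-one-out fit except those without replicate 1 or 3 of untreated wild-type, 2 of untreated knockout, 4 of treated wild-type or 4 of treated knockout cells, and -0.27 (limma adjusted p = 0.211) in wild-type cells.

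**Figure D3:**
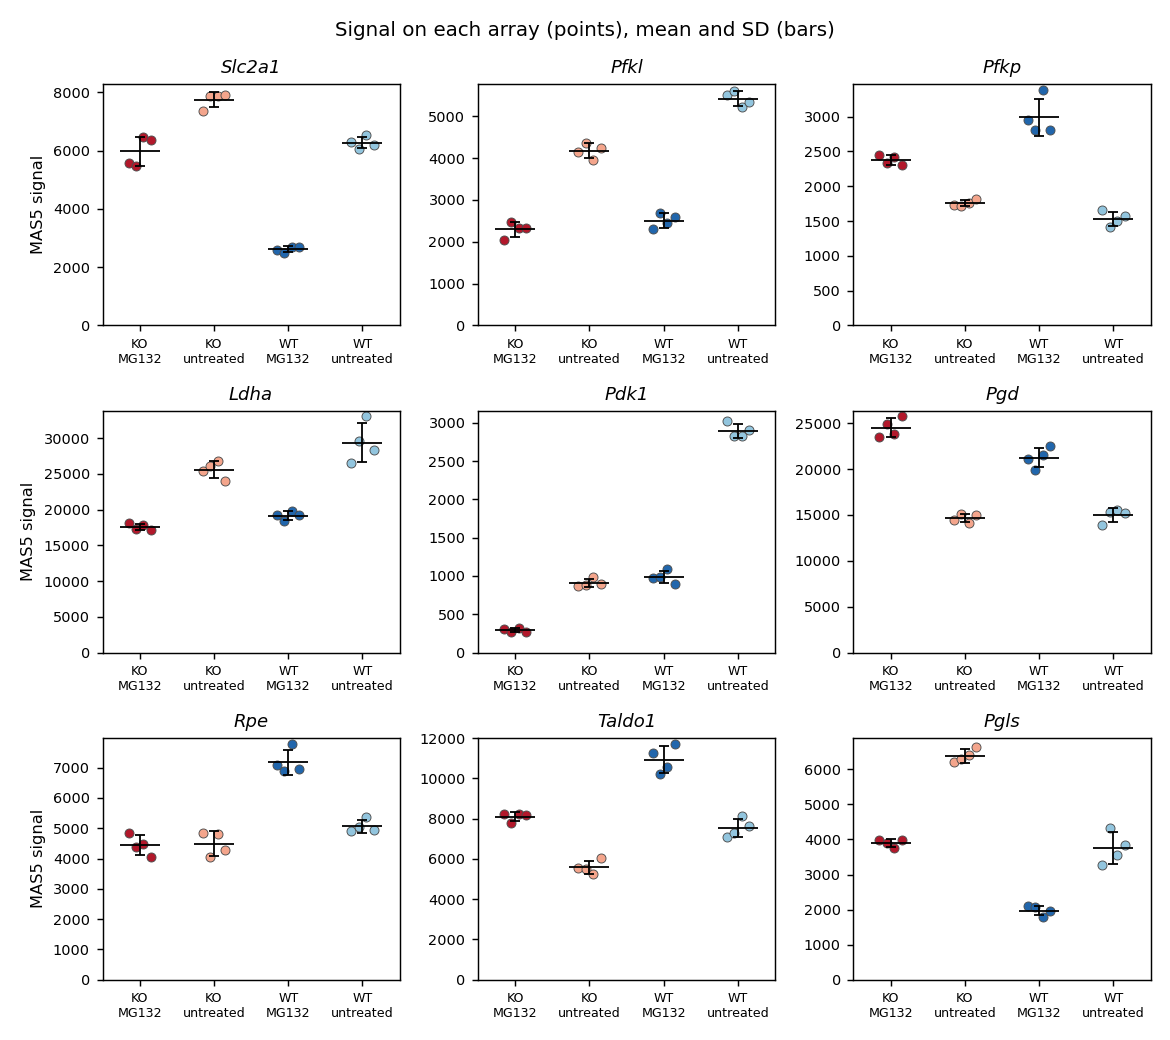
Signals of 9 members on every array. Each panel has a linear axis from 0, points are the 4 plates of a group, and bars give the mean and SD. Treated wild-type arrays are lowest for Slc2a1 and highest for Pfkp, Rpe and Taldo1, and Pdk1 is lower in knockout than in wild-type cells at each treatment.

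Fructose 2,6-bisphosphate is the strongest activator of phosphofructokinase. Bifunctional PFKFB enzymes make and degrade it, and TIGAR, a p53 target in human cells, lowers it and directs sugar toward the pentose phosphate pathway. Pfkfb3, the form with the most kinase-biased activity, gave 597, 695, 677 and 716 in treated knockout cells, against 466, 467, 312 and 476 in untreated knockout cells. The signals were 161, 179, 275 and 271 in treated wild-type cells, against 197, 172, 158 and 179.7 in untreated wild-type cells. All knockout arrays lay above all wild-type arrays. The knockout excess was 1.57 (SE 0.16, limma adjusted p = 6.65e-08) with MG132 and 1.20 (SE 0.16, limma adjusted p = 2.98e-06) without it. A second probe set, 1456676_a_at, gave a smaller excess, of 0.92 and 0.72. Pfkfb3 rose with MG132 in knockout cells by 0.64 (SE 0.16, limma adjusted p = 0.00195), and its wild-type value of 0.27 (SE 0.16, limma adjusted p = 0.159) did not pass. The difference between the responses, 0.37 (SE 0.23, limma adjusted p = 0.255), did not pass either. Tigar gave 940.5, 941, 934 and 965 in treated knockout cells, against 639.7, 683, 701 and 704 in untreated knockout cells. The signals were 455, 391, 509 and 412 in treated wild-type cells, against 495, 356, 445 and 327 in untreated wild-type cells. It rose in knockout cells by 0.46 (SE 0.11, limma adjusted p = 0.00113), and the response was not called in wild-type cells (0.13, SE 0.11, limma adjusted p = 0.322) or as a difference (0.33, SE 0.16, limma adjusted p = 0.123). The response depended on the probe set: 1447934_at gave 0.44 in knockout and 0.49 in wild-type cells, and 1435929_at gave 0.11 and -0.06. So did the genotype difference of Tigar: 1439859_at gave 1.08 with MG132 and 0.74 without it, and 1447934_at gave 0.36 and 0.41, but 1435929_at gave -0.80 and -0.97. No direction is given for Tigar between genotypes for that reason.

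Pfkfb4 signals were 535, 504, 514 and 485 in treated knockout cells, against 517, 581, 596 and 523 in untreated knockout cells. The array values were 532, 472, 586 and 582 in treated wild-type cells, against 374, 414, 474 and 379 in untreated wild-type cells. Treated and untreated arrays overlapped in both genotypes. It rose in wild-type cells by 0.39 (SE 0.10, limma adjusted p = 0.00148), gave -0.12 (SE 0.10, limma adjusted p = 0.318) in knockout cells, and the responses differed by -0.51 (SE 0.14, limma adjusted p = 0.00867). Untreated knockout cells were higher than untreated wild-type cells by 0.42 (SE 0.10, limma adjusted p = 0.000983). Pfkfb2, the heart form, ranged from 111 to 225 and passed in no comparison, with 0.02 in knockout and -0.09 in wild-type cells. Another of its probe sets, 1422092_at, gave 0.70 and 0.67, and the mean of all its probe sets passed in wild-type cells (0.45).

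Pyruvate can become lactate or enter the mitochondria. Pdk1, whose kinase switches off pyruvate dehydrogenase, showed the largest fall of the tested members in either genotype, and it was also much lower in knockout than in wild-type cells. Pdk1 gave 304, 267, 327 and 269 in treated knockout cells, against 867, 879.6, 992 and 897 in untreated knockout cells. The signals stood at 968, 989, 1089 and 897 in treated wild-type cells, against 3018, 2822, 2825 and 2911 in untreated wild-type cells. The untreated knockout arrays overlapped the treated wild-type arrays, and the treated knockout arrays were the lowest. The log2 change was -1.59 (SE 0.08, limma adjusted p = 7.25e-13) in knockout and -1.54 (SE 0.08, limma adjusted p = 9.87e-13) in wild-type cells, and the responses were not shown to differ (-0.05, SE 0.11, limma adjusted p = 0.79). Knockout cells were lower, with differences of -1.70 (SE 0.08, limma adjusted p = 2.03e-13) with MG132 and -1.66 (SE 0.08, limma adjusted p = 3.32e-13) without it. The probe sets with the next highest means gave -1.44 (1423748_at) and -1.33 (1435836_at) in knockout and -1.77 and -0.67 in wild-type cells. Which genotype had the larger fall thus depended on the probe set. The difference between the responses was 0.32 from 1423748_at and -0.67 from 1435836_at, and the second passed (limma adjusted p = 0.0417). Knockout cells were lower than wild-type cells from both, at -1.62 and -1.61 with MG132 and -1.94 and -0.95 without it. Pdk2, a kinase of the same family, had signals of 51.2, 48.2, 21.6 and 22.4 in treated knockout cells, against 118, 87.2, 84.8 and 86.2 in untreated knockout cells. The signals were 83.5, 59.9, 104 and 64.2 in treated wild-type cells, against 105, 102, 129 and 143 in untreated wild-type cells. It was above the array median on 4 arrays only. It lay below the median on all treated knockout arrays, and on the untreated ones except that at 118. Its fall in knockout cells was -1.13 (SE 0.26, limma adjusted p = 0.000755), a size that ran from -1.46 with a pseudocount of 1 to -0.67 with one of 64, while the wild-type value of -0.55 (SE 0.26, limma adjusted p = 0.0721) and the difference of -0.58 (SE 0.37, limma adjusted p = 0.258) did not pass. The filter on low signals removed Pdk2 from 4 of the 16 leave-one-out fits, and the wild-type value passed with a pseudocount of 64 (-0.38).

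Ldha, the gene of the lactate dehydrogenase subunit that dominates in glycolytic tissue, fell in both genotypes. It gave 18158, 17348, 17791 and 17218 in treated knockout cells, against 25422, 26041, 26812 and 23987 in untreated knockout cells. The signals were 19254, 18363, 19819.9 and 19294 in treated wild-type cells, against 26482, 29642, 33039 and 28413 in untreated wild-type cells. No treated array reached the lowest untreated array of its genotype. The change was -0.54 (SE 0.05, limma adjusted p = 3.9e-08) in knockout and -0.61 (SE 0.05, limma adjusted p = 4.8e-09) in wild-type cells, and the difference was 0.08 (SE 0.08, limma adjusted p = 0.507). Untreated knockout cells were lower than untreated wild-type cells (-0.20, SE 0.05, limma adjusted p = 0.00423), a call lost after centring on the tested genes (-0.13). Ldhb, the gene of the heart-type subunit, differed by genotype. Its signals were 639, 836, 816 and 735 in treated knockout cells, against 1001, 729, 720.4 and 772 in untreated knockout cells. The array values were 207, 205, 187 and 289.6 in treated wild-type cells, against 159.8, 247, 218 and 178 in untreated wild-type cells. Every knockout array lay above every wild-type array. Ldhb was higher in knockout cells by 1.71 (SE 0.15, limma adjusted p = 5.59e-09) with MG132 and 1.93 (SE 0.15, limma adjusted p = 9.22e-10) without it, and by 2.74 and 3.07 in the mean of all probe sets. The other probe sets, 1448237_x_at, 1455235_x_at and 1434499_a_at, were above the array median on 11, 9 and 8 of 16 arrays only, so that the size of their differences depends on the pseudocount. Its MG132 response did not pass in knockout (-0.08, SE 0.15, limma adjusted p = 0.652) or wild-type cells (0.14, SE 0.15, limma adjusted p = 0.447).

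Pdha1, the X-linked gene of the catalytic subunit of pyruvate dehydrogenase, gave 9423, 9361, 9333 and 9772 in treated knockout cells, against 9097, 9650.3, 9643 and 9048 in untreated knockout cells. The signals stood at 11758, 11656, 11490.5 and 10939 in treated wild-type cells, against 12207, 13026, 14127 and 13386 in untreated wild-type cells. All knockout arrays lay below the wild-type arrays of the same treatment. Its knockout minus wild-type difference was -0.27 (SE 0.05, limma adjusted p = 2.96e-05) with MG132 and -0.49 (SE 0.05, limma adjusted p = 1.27e-08) without it. Its response was 0.02 (SE 0.05, limma adjusted p = 0.757) in knockout and -0.20 (SE 0.05, limma adjusted p = 0.000666) in wild-type cells, with a difference of 0.22 (SE 0.06, limma adjusted p = 0.0148). Centring on the tested genes moved the difference to 0.16 and the response of wild-type cells to 0.00 and ended both calls, as the mean of both probe sets did for the wild-type response (-0.08). The knockout response passed as a rise under median centring (0.13), centring on the tested genes (0.16) and the mean of both probe sets (0.12). Pgk1, the other X-linked gene tested, was higher in knockout cells with MG132 (0.20, SE 0.05, limma adjusted p = 0.00405) and did not pass without it (0.06, SE 0.05, limma adjusted p = 0.334). Both X-linked members thus went opposite ways between genotypes in treated cells, beside the Xist values above. Slc16a1, the gene of the lactate and pyruvate carrier MCT1, rose by 0.29 (SE 0.09, limma adjusted p = 0.00849) in knockout and by 0.39 (SE 0.09, limma adjusted p = 0.000646) in wild-type cells. The wild-type rise was 0.74 in the mean of both probe sets, the second of which, 1446274_at, was above the array median on 7 arrays and gave 1.08. With MG132 Slc16a1 was lower in knockout cells (-0.30, SE 0.09, limma adjusted p = 0.00717), a call lost under median centring (-0.19) and in the mean of all probe sets (-0.23). Slc16a3, the gene of the lactate exporter MCT4, was above the array median on 1 array and was not tested, with means of 19.5 ± 11.6 in treated and 38.7 ± 31.3 in untreated knockout and 33.3 ± 27.7 and 71.6 ± 32.4 in wild-type cells (SD, n = 4 each).

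In the oxidative pentose phosphate branch, Pgls and Pgd moved in opposite directions. G6pdx, the gene of the first and rate-limiting enzyme, glucose 6-phosphate dehydrogenase, was not analysed here. Pgd encodes 6-phosphogluconate dehydrogenase, the second NADPH-forming enzyme, and is a known NRF2 target. It gave 23452, 24891, 23859 and 25760.4 in treated knockout cells, against 14415, 15153, 14162 and 15010.3 in untreated knockout cells. The signals were 21046, 19949, 21539 and 22508 in treated wild-type cells, against 13930.0, 15279.7, 15546 and 15205 in untreated wild-type cells. Treated arrays lay above untreated arrays throughout, and treated knockout arrays above treated wild-type arrays. Pgd rose by 0.74 (SE 0.05, limma adjusted p = 4.15e-11) in knockout and by 0.50 (SE 0.05, limma adjusted p = 1.05e-08) in wild-type cells, and the response was larger in knockout cells by 0.23 (SE 0.07, limma adjusted p = 0.0125). This difference was lost after centring on the tested genes (0.17). Its 3 other probe sets gave rises of 0.74, 0.78 and 0.76 in knockout and 0.53, 0.64 and 0.59 in wild-type cells. Pgls, whose lactonase acts between both dehydrogenases, gave 3971, 3892, 3751 and 3996 in treated knockout cells, against 6209.9, 6284, 6397 and 6649.8 in untreated knockout cells. The signals were 2089, 2066, 1784 and 1951 in treated wild-type cells, against 3279, 4336, 3544 and 3831 in untreated wild-type cells. Its treated arrays lay below the untreated ones in each genotype, and knockout arrays above wild-type arrays of the same treatment. Pgls fell by 0.71 (SE 0.07, limma adjusted p = 1.83e-08) in knockout and by 0.92 (SE 0.07, limma adjusted p = 3.44e-10) in wild-type cells on the log2 scale, and the responses were not shown to differ (0.21, SE 0.10, limma adjusted p = 0.119). It was higher in knockout cells by 0.98 (SE 0.07, limma adjusted p = 1.58e-10) with MG132 and 0.77 (SE 0.07, limma adjusted p = 6.45e-09) without it.

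In the non-oxidative branch, Taldo1 rose and Rpia fell in both genotypes, and Rpe rose in wild-type cells. Taldo1, the transaldolase gene, gave 8206, 7774, 8232 and 8181 in treated knockout cells, against 5528, 5499.8, 5270.1 and 6052 in untreated knockout cells. The array values were 11267, 10208, 10549 and 11684 in treated wild-type cells, against 7078, 7292, 8141 and 7622 in untreated wild-type cells. Treated arrays were higher in each genotype, and wild-type arrays were above knockout arrays at either treatment. The rise was 0.54 (SE 0.05, limma adjusted p = 3.56e-08) in knockout and 0.54 (SE 0.05, limma adjusted p = 3.11e-08) in wild-type cells, and the difference 0.00 (SE 0.08, limma adjusted p = 1). Knockout cells were lower, with differences of -0.43 (SE 0.05, limma adjusted p = 9.33e-07) with MG132 and -0.43 (SE 0.05, limma adjusted p = 1.04e-06) without it. Rpe, which encodes ribulose phosphate epimerase, gave 4855, 4375, 4483 and 4049 in treated knockout cells, against 4833, 4035, 4823 and 4269 in untreated knockout cells. The signals stood at 7096, 6879.9, 7789 and 6937 in treated wild-type cells, against 4894, 5035, 5353 and 4954 in untreated wild-type cells. The treated wild-type arrays stood above the other 12, and in knockout cells the groups overlapped. Its response was -0.01 (SE 0.06, limma adjusted p = 0.859) in knockout and 0.50 (SE 0.06, limma adjusted p = 8.91e-07) in wild-type cells, and the responses differed by -0.52 (SE 0.09, limma adjusted p = 0.000268). The second probe set, 1416705_at, gave -0.04 and 0.47. The third, 1448444_at, below the array median on all 16 arrays, gave -0.75 and 0.58, and with it in the mean of all probe sets the knockout response passed as a fall (-0.27, limma adjusted p = 0.0321) and the difference became -0.78. With MG132, Rpe was lower in knockout than in wild-type cells (-0.69, SE 0.06, limma adjusted p = 1.28e-08).

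Rpia, the gene of ribose 5-phosphate isomerase, gave 1157, 1044, 1036 and 1175 in treated knockout cells, against 1997, 2027, 1828 and 2005 in untreated knockout cells. The signals were 1882, 1886, 1815 and 1837 in treated wild-type cells, against 2744, 2739.7, 2427 and 2658 in untreated wild-type cells. Its treated knockout arrays were the lowest. Rpia changed by -0.82 (SE 0.06, limma adjusted p = 2.36e-10) in knockout and -0.50 (SE 0.06, limma adjusted p = 2.74e-07) in wild-type cells, with a difference of -0.32 (SE 0.08, limma adjusted p = 0.00709) that was lost under median centring (-0.19). It was lower in knockout cells, with differences of -0.74 (SE 0.06, limma adjusted p = 1.32e-09) with MG132 and -0.42 (SE 0.06, limma adjusted p = 4.22e-06) without it. Rpe, Rpia and Taldo1 were therefore all lower in knockout than in wild-type cells at either treatment, although the untreated call of Rpe (-0.18, SE 0.06, limma adjusted p = 0.0264) was lost after centring on the tested genes (-0.10) and in the mean of all probe sets (-0.11), and without replicate 3 of untreated wild-type (-0.15) or 2 or 4 of untreated knockout cells (-0.13 and -0.15). Tkt, the transketolase gene, did not pass from its probe set with the highest mean, 1439443_x_at, with 0.18 (SE 0.16, limma adjusted p = 0.353) in knockout and 0.12 (SE 0.16, limma adjusted p = 0.528) in wild-type cells. Another probe set, 1451015_at, gave 0.40 and 0.33, and the mean of all probe sets passed with 0.37 and 0.34.

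Phosphoglucomutase links glucose 6-phosphate to glycogen and UDP-glucose. Pgm1, its main gene, fell in both genotypes. Pgm1 gave 1307, 1394, 1320.5 and 1262 in treated knockout cells, against 2131, 2109, 2145 and 2013 in untreated knockout cells. The signals were 921, 995, 951 and 1001 in treated wild-type cells, against 1896, 1899, 1909.5 and 1960.5 in untreated wild-type cells. Every treated array was below the untreated arrays of its genotype. It changed by -0.66 (SE 0.05, limma adjusted p = 1.16e-09) in knockout and -0.98 (SE 0.05, limma adjusted p = 2.82e-12) in wild-type cells, with a difference of 0.31 (SE 0.08, limma adjusted p = 0.00363). A second probe set, 1437240_at, below the array median on all 16 arrays, gave -0.50 and 0.39, and the mean with it ended the wild-type call (-0.29) and turned the difference (-0.29). Pgm2, whose human counterpart also acts on pentose phosphates, gave 2585, 2622, 2402 and 2654 in treated knockout cells, against 2710.4, 3002, 2678 and 2782 in untreated knockout cells. The array values were 3066, 3053, 2955 and 3169 in treated wild-type cells, against 2537, 2948, 2836 and 2622 in untreated wild-type cells. Treated arrays were the lower ones in knockout cells and the higher ones in wild-type cells. Its response was -0.12 (SE 0.06, limma adjusted p = 0.0662) in knockout and 0.16 (SE 0.06, limma adjusted p = 0.0153) in wild-type cells, and the responses differed by -0.28 (SE 0.08, limma adjusted p = 0.0103), a call lost under median centring (-0.16). The wild-type call was lost without replicate 1 of untreated wild-type cells (0.13). Fbp2, the muscle fructose bisphosphatase gene, lay below the array median on all 16 arrays, at 4.57 to 47.2, and was not tested. Gpi1 and Eno1, which encode glucose phosphate isomerase and the main enolase, were not analysed here.

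Across the members, the response to MG132 differed by genotype in 12 of 33. 7 were more positive and 5 more negative in knockout cells, against 28.3% of all tested genes called (14.2% and 14.1%). The more positive ones were Slc2a1, Hk1, Pfkl, Pgam1, Pdha1, Pgd and Pgm1, and the more negative ones Pfkp, Pfkfb4, Rpia, Rpe and Pgm2. Under centring on the tested genes 3 were more positive and 5 more negative, and under median centring 15 and 3. 4 of the 12 were called under every alternative: Slc2a1, Pfkp, Pfkfb4 and Rpe. Of the calls over all genes 50.1% were more positive, against 74.7% under median centring and 38.6% when centred on the tested genes.

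Knockout cells were also compared with wild-type cells at each treatment. Pdk1 was lower, and Ldhb, Pfkfb3, Pgls and Pfkm were higher, in knockout cells with and without MG132. With MG132 13 members were higher and 10 lower in knockout cells, against 58.8% of all tested genes called (30.7% and 28.1%). 52.3% of those calls were higher, and 64.6% under median centring. Without it 13 were higher and 8 lower, against 55.6% (28.6% and 26.9%). Calls not given above were those of Pkm (higher with MG132, 0.21), of Hk1 (higher with MG132, 0.33), of Pgam1 (higher, 0.35 with and 0.16 without MG132), of Pgd (higher with MG132, 0.20), and of Pdk2 and Pgm2 (lower with MG132, -0.89 and -0.25). The Pdk2 value ran from -1.17 to -0.51 with the pseudocount, and that of Pgm2 was -0.15 under median centring. Pgm1 was higher with MG132 (0.44), a call lost in the mean of all probe sets (0.07), and Pfkl was lower without it (-0.37), a call lost with unsuffixed probe sets. Pgm1 (0.13) and Eno3 (0.22) were called higher without MG132, and Aldoa lower (-0.15 with and -0.23 without it). The first was lost under median centring (0.11), without the filter on low signals, in the mean of all probe sets (0.36) and without any 1 of the untreated arrays except replicate 4 of knockout cells, the second without the filter and without replicate 1, 2 or 4 of untreated wild-type or 2 or 3 of untreated knockout cells, and the treated value of Aldoa under median centring (-0.04), centring on the tested genes (-0.14), without the filter, without the trend and without any 1 of the treated arrays except replicate 2 of wild-type and 4 of knockout cells. The glycolytic median was 0.20 with MG132 and 0.13 without it, and the pentose phosphate median -0.14 and -0.10, beside 0.02 and 0.01 over all genes. These comparisons share arrays with the MG132 responses, and genotype cannot be told apart from sex or cell isolate.

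**Figure D4:**
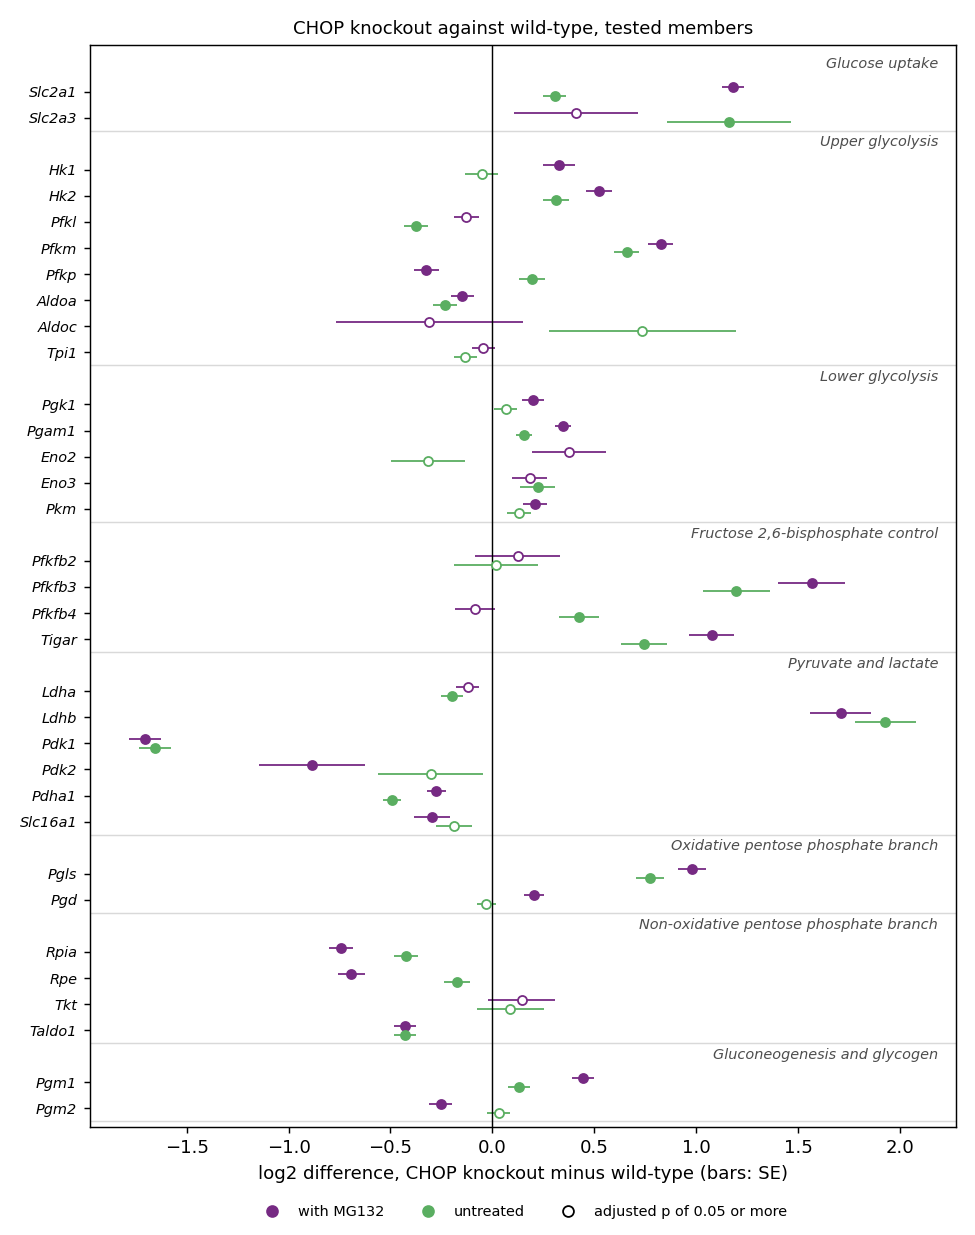
Differences between knockout and wild-type cells for the 33 tested members, by role. The horizontal axis is the log2 difference (knockout minus wild-type) with its SE, purple with MG132 and green untreated, and open points did not pass the test. Ldhb, Pfkfb3, Pgls and Pfkm lie right and Pdk1 left of 0 at both treatments, and the pentose phosphate genes Rpia, Rpe and Taldo1 lie left of it.

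Related genes outside the 38 were read from companion lists, naming up to 4 genes of each with the smallest adjusted p of either genotype. The shares over all tested genes were 25.7% higher and 36.8% lower in knockout cells, and 27.2% and 36.9% in wild-type cells. List counts near these shares say little on their own. Among other glycolysis and glucose genes, 4 of 15 rose and 5 fell in knockout and 6 rose and 3 fell in wild-type cells (medians -0.06 and 0.27). Txnip, which restrains glucose uptake, rose by 0.92 in knockout and 1.42 in wild-type cells. Pck2, the mitochondrial enzyme that turns oxaloacetate into phosphoenolpyruvate, rose by 0.77 in knockout and 0.19 in wild-type cells, a difference of 0.58 (SE 0.07, limma adjusted p = 4.02e-06). Bpgm, which makes 2,3-bisphosphoglycerate, changed by -0.32 in knockout and -1.14 in wild-type cells, and the transporter gene Slc2a8 by -1.18 in knockout and -0.70 in wild-type cells. Gapdh was read only from array control probe sets. That for its 3' end averaged 38679.7 ± 720.5 in treated and 33694 ± 2035 in untreated knockout cells, and 37718 ± 1826 and 33566 ± 4455 in wild-type cells (SD, n = 4 each). The control for the 5' end averaged 47008 and 40594 in knockout and 44758 and 39588 in wild-type cells. The one for the middle averaged 43087 and 37572 in knockout and 41578 and 36880 in wild-type cells.

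In the list of the pyruvate dehydrogenase complex and pyruvate import, 4 of 11 rose and 3 fell in knockout and 5 rose and 4 fell in wild-type cells (medians 0.04 and 0.02). Pdhb, its other catalytic subunit gene, rose by 0.60 in knockout and 0.94 in wild-type cells, and Pdhx, a structural subunit, by 0.83 in knockout and 0.57 in wild-type cells. Mpc1, a subunit of the mitochondrial pyruvate carrier, fell, at -0.68 in knockout and -0.77 in wild-type cells. Dlat, the acetyltransferase subunit gene, fell in wild-type cells at -0.52 and gave -0.05 in knockout cells, and the responses differed by 0.47 (SE 0.07, limma adjusted p = 3.46e-05). In wild-type cells the complex thus held rising and falling subunit genes. Among other pentose phosphate and phosphoribosyl genes, 2 of 6 rose and 2 fell in knockout and 2 rose and 3 fell in wild-type cells (medians -0.12 and -0.06). H6pd, the dehydrogenase of the endoplasmic reticulum, changed by -1.23 in knockout and -1.29 in wild-type cells. Prps1 and Prps2, which turn ribose 5-phosphate into phosphoribosyl pyrophosphate, went opposite ways: Prps1 rose by 0.17 in knockout and 0.56 in wild-type cells, and Prps2 changed by -0.75 in knockout and -1.0 in wild-type cells. Prpsap1, the gene of an associated protein, gave 0.12 in knockout and -0.20 in wild-type cells.

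Of other NADPH sources, 3 of 10 rose and 6 fell in knockout and 4 rose and 5 fell in wild-type cells (medians -0.26 and -0.20). The mitochondrial folate enzymes Mthfd2 and Aldh1l2 rose, by 0.74 in knockout and 1.06 in wild-type cells and by 1.05 in knockout and 0.95 in wild-type cells. Nadk, which makes NADP from NAD, fell, at -1.03 in knockout and -1.28 in wild-type cells, as did the mitochondrial transhydrogenase gene Nnt, at -0.59 in knockout and -0.79 in wild-type cells. In glycogen and UDP-glucose metabolism, 0 of 7 rose and 3 fell in knockout and 1 rose and 3 fell in wild-type cells (medians -0.14 and -0.18). Ugp2, which makes UDP-glucose, rose in wild-type cells by 0.76 and gave -0.10 in knockout cells, a difference of -0.86 (SE 0.07, limma adjusted p = 1.09e-08). The glycogen phosphorylase Pygb changed by -0.47 in knockout and -0.55 in wild-type cells, glycogenin (Gyg) by -0.24 in knockout and -0.18 in wild-type cells, and the synthase Gys1 gave 0.21 in knockout and -0.56 in wild-type cells. NRF2 targets outside the pathway rose in 8 of 8 in knockout and 8 of 8 in wild-type cells (medians 1.51 and 1.53). Hmox1 rose by 3.72 in knockout and 2.80 in wild-type cells, Slc7a11 by 2.68 in knockout and 3.81 in wild-type cells, Srxn1 by 1.97 in knockout and 1.78 in wild-type cells and Osgin1 by 2.60 in knockout and 2.45 in wild-type cells.

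Targets of hypoxia-inducible factor outside glycolysis held calls in both directions, as the tested genes at large did. In knockout cells 5 of 11 rose and 4 fell, and in wild-type cells 5 rose and 3 fell (medians -0.04 and 0.10). Ndrg1 rose by 1.87 in knockout and 1.78 in wild-type cells, Ddit4, also a stress gene, by 1.85 in knockout and 1.03 in wild-type cells, and Vegfa by 1.30 in knockout and 0.95 in wild-type cells. Bnip3, a mitophagy receptor gene, fell, at -0.24 in knockout and -1.14 in wild-type cells, with a difference of 0.90 (SE 0.09, limma adjusted p = 2.26e-07). Among regulators, 4 of 7 rose and 1 fell in knockout and 1 rose and 2 fell in wild-type cells (medians 0.26 and -0.02). Nfe2l2, the gene of NRF2, rose in knockout cells by 0.30 and gave -0.02 in wild-type cells, a difference of 0.32 (SE 0.06, limma adjusted p = 0.000643). Atf4 rose by 0.56 in knockout and 0.53 in wild-type cells. Arnt, a subunit of hypoxia-inducible factor, and Mlxip, a glucose-sensing factor, gave -0.25 in knockout and -0.81 in wild-type cells and -0.30 in knockout and -0.94 in wild-type cells. These values describe RNA levels of the genes named and carry no measurement of protein, flux or metabolites.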

How the data were processed

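RNA of 16 plates was labelled with a 3' kit and hybridised to Affymetrix mouse arrays, 1 plate per array, per the labels. The authors deposited linear MAS5 signal intensities per probe set (MAS5 per the submitters' processing notes, its version not given in the sources used here). In the deposited signals every array has the same mean after trimming 2% at each end, so a change is relative to the rest of the array. Saturation, cross-hybridisation and probe position could not be checked from probe set signals.

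Of 45101 probe sets, 64 controls, 932 that name several genes and 9160 with none were left out. The 34945 others name 1 gene in GEO's platform annotation, and 34741 matched RefSeq by gene ID. Per gene the probe set with the highest mean was kept and tested if above its array's median on at least 4 arrays. Values log2(signal + 16) entered limma 3.58.1 (R 4.3.3; lmFit, eBayes with trend) with a coefficient for each group, on all 16 arrays together (12 residual degrees of freedom), 5 contrasts, two-sided, Benjamini-Hochberg over all tested genes, threshold 0.05. The fit was tested on simulated data.

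The members and companion lists were chosen with earlier results of these data known. Members called in the difference between responses, or called with a log2 size of at least 0.5 in another contrast, are given on every array. Alternatives are in the closing section, and centring on the tested genes was added after seeing the data. Gene lists are described by counts and medians, with no test. Promoter windows are RefSeq's (GRCm38.p6). Gpi1, Eno1 and G6pdx were not analysed here.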

Additional observations from a re-analysis of the deposited data

Results flagged for a closer look

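Signals of 1 array stood apart from the other 3 of its group in 8 of 132 combinations of member and group, where chance gives about 5%. Slc2a1 had 7354 in untreated knockout replicate 1, below the 7871 to 7913 of the other 3 arrays. Hk1 had 2223 in treated knockout replicate 1, below the 2674 to 2723 of the other 3 arrays. Aldoc had 178 in untreated knockout replicate 2, above the 106 to 113 of the other 3 arrays. Pfkfb2 had 225 in treated wild-type replicate 3, above the 111 to 124 of the other 3 arrays. Pfkfb3 had 312 in untreated knockout replicate 3, below the 466 to 476 of the other 3 arrays. Pdk2 had 118 in untreated knockout replicate 1, above the 84.8 to 87.2 of the other 3 arrays. Rpia had 1828 in untreated knockout replicate 3, below the 1997 to 2027 of the other 3 arrays. Taldo1 had 7774 in treated knockout replicate 2, below the 8181 to 8232 of the other 3 arrays. 7 of the 8 were in knockout cells.

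The response to MG132 differed between the genotypes in 12 members, by limma's test of the difference between the responses (knockout minus wild-type). It was more positive in knockout cells for Slc2a1 (0.88, limma adjusted p = 6.63e-08), Hk1 (0.38, limma adjusted p = 0.0158), Pfkl (0.25, limma adjusted p = 0.0337), Pgam1 (0.19, limma adjusted p = 0.0142), Pdha1 (0.22, limma adjusted p = 0.0148), Pgd (0.23, limma adjusted p = 0.0125) and Pgm1 (0.31, limma adjusted p = 0.00363). It was more negative for Pfkp (-0.52, limma adjusted p = 0.000165), Pfkfb4 (-0.51, limma adjusted p = 0.00867), Rpia (-0.32, limma adjusted p = 0.00709), Rpe (-0.52, limma adjusted p = 0.000268) and Pgm2 (-0.28, limma adjusted p = 0.0103). Genotype cannot be told apart from sex or cell isolate in these values.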

How the results depend on the processing

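The members' values and the counts of calls were recomputed with other pseudocounts, scalings, filters, probe set rules, samples and fits, and without each array in turn, wherever the gene still had a probe set and passed the filter. Of 4507 such values of single members 4223 kept their direction and side of the threshold, 98 passed newly, 100 no longer passed and 86 changed sign. Calls that held under every setting that gave a value numbered 15 of 24 for the knockout response, 15 of 20 for the wild-type response, 4 of 12 for the difference between the responses, 19 of 23 for knockout against wild-type with MG132, 14 of 21 for knockout against wild-type without MG132. The first and the fourth include Pdk2, which had a value in 23 of 28 settings, and are 14 and 18 without it. Signals without detection calls give no limit of detection, and low members such as Slc2a3, Aldoc and Pdk2 are the least precise. The number of arrays limits the precision of all. Counts by class are small, so that a few calls move them. The causes of the changes were not tested.

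Counts of calls moved by over 1.5 times as follows. The mean of all probe sets of a gene gave for the wild-type response 11 members higher (against 7), 2 glycolytic enzymes higher (against 1). Centring on the median of the tested genes gave for the wild-type response 13 members higher (against 7), 4 glycolytic enzymes higher (against 1), and for the difference between the responses 3 members higher (against 7), 1 glycolytic enzyme higher (against 3), 0 pentose phosphate enzymes higher (against 1), and for knockout against wild-type with MG132 1 glycolytic enzyme lower (against 2). Leaving out probe sets with a suffix gave for the knockout response 7 members higher (against 11), 8 members lower (against 13), 3 glycolytic enzymes higher (against 6), 2 glycolytic enzymes lower (against 6), 1 pentose phosphate enzyme higher (against 2), and for the wild-type response 8 members lower (against 13), 2 glycolytic enzymes lower (against 6), and for the difference between the responses 3 members higher (against 7), 0 glycolytic enzymes higher (against 3), 0 pentose phosphate enzymes higher (against 1), and for knockout against wild-type with MG132 1 glycolytic enzyme lower (against 2), 1 pentose phosphate enzyme higher (against 2), and for knockout against wild-type without MG132 4 members lower (against 8), 0 glycolytic enzymes lower (against 2). Hk1, Aldoa, Tpi1, Pgam1, Eno2, Ldha, Ldhb, Pgd and Taldo1 had only probe sets with a suffix and so no value in that setting. The unsuffixed probe sets of Slc2a3 and Aldoc did not pass the filter on low signals. Its counts thus cover fewer members, and a lower count there is not in itself a lost call. The replicate number as a block gave for the wild-type response 3 glycolytic enzymes higher (against 1). Quantile normalisation gave for the knockout response 3 glycolytic enzymes higher (against 6), and for the difference between the responses 5 glycolytic enzymes higher (against 3). Median centring gave for the knockout response 3 glycolytic enzymes lower (against 6), and for the difference between the responses 15 members higher (against 7), 3 members lower (against 5), 8 glycolytic enzymes higher (against 3), 2 pentose phosphate enzymes higher (against 1), 1 pentose phosphate enzyme lower (against 2), 2451 tested genes higher (against 1623), 829 tested genes lower (against 1616), and for knockout against wild-type with MG132 1 glycolytic enzyme lower (against 2). No filter on low signals gave for knockout against wild-type with MG132 1 glycolytic enzyme lower (against 2). A fit without the mean-variance trend gave for knockout against wild-type with MG132 1 glycolytic enzyme lower (against 2). The glycolytic enzymes called higher for the wild-type response numbered 1 to 4 over the leave-one-out fits (against 1), and moved without untreated wild-type replicate 3, untreated knockout replicate 2, treated wild-type replicate 2. The pentose phosphate enzymes called higher for the difference between the responses numbered 1 to 2 over the leave-one-out fits (against 1), and moved without untreated wild-type replicate 1. The glycolytic enzymes called lower for knockout against wild-type with MG132 numbered 1 to 2 over the leave-one-out fits (against 2), and moved without treated wild-type replicate 3, treated wild-type replicate 4, treated knockout replicate 1, treated knockout replicate 3.

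Replicate numbers in the labels were not taken to pair the arrays. Deviations correlated over 0.1 in 5 of 24 same-numbered pairs. The like count for other-numbered pairs is not given here, so this count cannot decide whether the numbers pair the arrays. Same-numbered arrays correlated at -0.07 to 0.16 and other-numbered arrays at -0.17 to 0.13. In 8 of 16 arrays the best match among the 12 arrays of other groups, 3 of which share its number, had its own number, a hint from the data and not from the design. With the replicate number as a block 11 members were called higher and 13 lower for the knockout response, 9 members were called higher and 13 lower for the wild-type response, 8 members were called higher and 5 lower for the difference between the responses, 13 members were called higher and 12 lower for knockout against wild-type with MG132, 13 members were called higher and 9 lower for knockout against wild-type without MG132.

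Among called values the sign turned for Pfkl in the knockout response, Pdha1 in the wild-type response and Pgm1 in the difference between the responses, and the other values here had not passed. Centring on the median of the tested genes gave for the knockout response Pfkfb4 0.029, Ldhb 0.061, Rpe 0.13, Pgm2 0.023, and for the wild-type response Hk2 0.14, Aldoc 0.20, Pfkfb2 0.11, Pdha1 0.0027, and for the difference between the responses Tkt -0.0021, Taldo1 -0.058, and for knockout against wild-type without MG132 Hk1 0.018, Pgd 0.042. A pseudocount of 1 gave for the wild-type response Aldoc 0.089. Quantile normalisation gave for the knockout response Pfkfb4 0.029, Ldhb 0.041, Pdha1 -0.034, and for the wild-type response Pgk1 -0.11, Pkm -0.0093, Tkt -0.045, and for the difference between the responses Pdk1 0.035, Taldo1 -0.012, and for knockout against wild-type without MG132 Pgk1 -0.0057. The mean of all probe sets of a gene gave for the knockout response Slc2a3 0.025, and for the wild-type response Pfkfb2 0.45, and for the difference between the responses Pfkfb2 -0.27, Pdk1 0.075, Pgm1 -0.29, and for knockout against wild-type with MG132 Pfkfb2 -0.12, and for knockout against wild-type without MG132 Hk1 0.071, Slc16a1 0.15, Pgd 0.011. Leaving out probe sets with a suffix gave for the knockout response Pfkl 0.094, and for the difference between the responses Pdk1 0.32, and for knockout against wild-type with MG132 Pfkl 0.17, and for knockout against wild-type without MG132 Tkt -0.047. Median centring gave for the knockout response Ldhb 0.032, Rpe 0.10, and for the difference between the responses Eno3 0.087, Pdk1 0.078, Slc16a1 0.020, and for knockout against wild-type with MG132 Tpi1 0.061, Pfkfb4 0.020, and for knockout against wild-type without MG132 Pfkfb2 -0.0033. A pseudocount of 64 gave for the difference between the responses Pdk1 0.044, Taldo1 -0.00097. Over the leave-one-out fits signs turned as follows: for the knockout response Pfkfb2 ran from -0.044 to 0.11, Ldhb ran from -0.13 to 0.023, Rpe ran from -0.064 to 0.029, and for the wild-type response Hk2 ran from -0.10 to 0.011, Aldoc ran from -0.45 to 0.24, Pfkfb2 ran from -0.30 to 0.020, Tkt ran from -0.00025 to 0.34, and for the difference between the responses Eno3 ran from -0.11 to 0.047, Pfkfb2 ran from -0.0019 to 0.31, Slc16a1 ran from -0.18 to 0.012, Tkt ran from -0.16 to 0.18, Taldo1 ran from -0.038 to 0.039, and for knockout against wild-type with MG132 Aldoc ran from -0.63 to 0.22, Tkt ran from -0.072 to 0.27, and for knockout against wild-type without MG132 Pfkfb2 ran from -0.073 to 0.13, Tkt ran from -0.0054 to 0.19, Pgm2 ran from -0.0042 to 0.068.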
